A study of Mus musculus with 12 samples.

Results

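Sulfotransferases, dehydrogenases, reductases and a cytochrome P450 that clear alcohols, aldehydes, steroids and foreign compounds were followed in ISCs of the mouse small intestine. The set held 9 genes of 47729 in the count table, namely *Sult1a1*, *Sult1b1*, *Sult1d1*, *Adh1*, *Adh6a*, *Aldh1a1*, *Akr1b7*, *Akr1b8* and *Cyp2c55*. They were listed by symbol and chosen by their measured changes in stress vs. Ctrl and CORT vs. vehicle in these same libraries, so their changes are given below as a description, with no test. All 9 passed the filter on low counts in every comparison.

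Flow cytometry gave ISCs as viable EpCAM+ cells, negative for CD31, CD45, TER119 and CD24, with the brightest EGFP (Lgr5-EGFPhi), of *Lgr5-EGFP-IRES-CreERT2* mice aged 8 to 10 weeks. In this line *Lgr5*, a stem cell gene, drives EGFP and a tamoxifen-inducible Cre, and every group shared this genotype. Stress mice were restrained for 3 h and Ctrl mice were not. The stress libraries are titled CRS, the study's short form for chronic restraint stress, while its methods describe a single exposure for the sequenced ISCs, and the latter is taken here. In the restraint protocol the controls went without food and water for as long as the restrained mice. Other mice received a single intraperitoneal injection of corticosterone at 5 mg/kg (CORT) or of its sulfobutylether-β-cyclodextrin solution (vehicle). Each of the 4 groups had 3 libraries, which are given below in the order of their numbers: Ctrl 1, 2, 3, stress 1+2, 3, 4+5+6, vehicle 3, 5, 6, and CORT 2, 4, 5. The joined numbers read as cells of several mice pooled, both sexes were used with the sex of each library not given, and nothing else in the labels says whether the libraries were separate animals, so the spread between libraries may be in part technical.

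Libraries held 15934907 to 17135770 estimated counts in Ctrl and stress, 16465961 to 31280267 in vehicle and 29426183 to 69533214 in CORT, so depth rose together with the CORT group. Levels are CPM, estimated counts scaled to the size of the library after TMM adjustment, and 12 counts, about 3 read pairs, corresponded to 0.173 to 0.753 CPM. The glucocorticoid target *Fkbp5*, a chaperone partner of the receptor, was 3.29-fold higher in stress than in Ctrl and 5.35-fold higher in CORT than in vehicle. The 6 ISC markers summed to 10616 to 13854 CPM per library, most of it *Olfm4* and *Slc12a2*. *Ascl2*, a transcription factor of ISCs, was called lower in stress (137 to 147 CPM in Ctrl, 53.4 to 68.5 CPM in stress). Its log2 change in CORT was -0.998 ± 0.18 (edgeR adjusted p = 0.0114). *Lgr5* was -0.43 ± 0.10 in CORT (adjusted p = 0.0277) and -0.08 ± 0.13 in stress (adjusted p = 0.823). Of the 6 markers, 2 had a log2 change above 0 in stress and 1 in CORT. *Olfm4* was 0.23 ± 0.11 in stress and 0.15 ± 0.10 in CORT, with no call. Markers of blood cells summed to at most 1.72 CPM and those of stromal and endothelial cells to at most 3.25 CPM, with *Lyz2*, *Col3a1* and *Kdr* at 0 in most libraries. *Pecam1*, an endothelial marker, was called higher in CORT than in vehicle (log2 change 2.125 ± 0.54, edgeR adjusted p = 0.0427). It measured 0.289 to 0.945 CPM in vehicle, on 5 to 16 counts, and 1.49 to 3.25 CPM in CORT.

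Detoxification runs in steps. Cytochromes P450, alcohol dehydrogenases and aldo-keto reductases oxidize or reduce a compound, aldehyde dehydrogenases turn reactive aldehydes into acids, and cytosolic sulfotransferases attach a sulfate taken from the donor PAPS, which makes the product water-soluble and ready for export. In the intestine these enzymes are best known from absorptive enterocytes, where they meet dietary compounds, and several are under the control of nuclear receptors such as PXR, CAR, PPARα and LRH-1. *Aldh1a1* also makes retinoic acid from retinaldehyde, and glucocorticoids act through their own nuclear receptor, which binds paired AGAACA half-sites.

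The genes lay in pairs. In mm10, *Sult1b1* and *Sult1d1* were 16.5 kb apart on chromosome 5, *Adh1* and *Adh6a* 22.6 kb apart on chromosome 3, and *Akr1b8* and *Akr1b7* 43.9 kb apart on chromosome 6. *Sult1a1* lay on chromosome 7, and *Cyp2c55* and *Aldh1a1* both lay on chromosome 19, at 39007019 and 20601961. The promoters of *Sult1d1*, *Adh6a* and *Akr1b7* are shown because these 3 genes were called higher in both treatments (edgeR adjusted p under 0.05 and more than 2-fold). That of *Akr1b8* is shown because it is the close relative of *Akr1b7* that was not called. They are RefSeq windows on GRCm38.p6 from 250 bases before to 50 bases after the gene's start, written 5′ to 3′ on the gene's own strand. AGAACA (the half-site) and TATAAA (the letters of a TATA box) are in capitals in either orientation.
Sult1d1 promoter (chr5:87568957-87569256, minus strand): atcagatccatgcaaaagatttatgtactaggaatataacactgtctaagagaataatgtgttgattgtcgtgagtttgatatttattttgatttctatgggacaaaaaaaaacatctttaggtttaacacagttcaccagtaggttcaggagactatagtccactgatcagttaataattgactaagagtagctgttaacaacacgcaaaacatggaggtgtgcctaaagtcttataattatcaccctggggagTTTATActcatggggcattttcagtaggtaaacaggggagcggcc
Adh6a promoter (chr3:138313036-138313335, plus strand): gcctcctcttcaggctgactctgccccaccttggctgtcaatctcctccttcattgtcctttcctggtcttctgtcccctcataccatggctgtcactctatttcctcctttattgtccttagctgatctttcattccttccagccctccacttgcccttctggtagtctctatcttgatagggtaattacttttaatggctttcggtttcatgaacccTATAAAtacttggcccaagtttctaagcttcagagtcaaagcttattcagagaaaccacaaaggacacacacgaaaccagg
Akr1b7 promoter (chr6:34412112-34412411, plus strand): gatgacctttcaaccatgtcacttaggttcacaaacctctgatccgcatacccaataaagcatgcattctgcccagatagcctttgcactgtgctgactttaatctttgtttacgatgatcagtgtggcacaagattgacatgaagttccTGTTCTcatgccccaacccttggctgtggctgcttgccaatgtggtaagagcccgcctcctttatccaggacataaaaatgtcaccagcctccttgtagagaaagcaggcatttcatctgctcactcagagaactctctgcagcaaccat
Akr1b8 promoter (chr6:34353896-34354195, plus strand): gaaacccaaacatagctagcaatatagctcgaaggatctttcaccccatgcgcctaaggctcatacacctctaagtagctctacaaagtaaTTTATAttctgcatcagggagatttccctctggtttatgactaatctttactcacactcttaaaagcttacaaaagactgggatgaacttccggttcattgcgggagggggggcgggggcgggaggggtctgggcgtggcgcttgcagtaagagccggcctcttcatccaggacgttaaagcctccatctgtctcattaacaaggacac
All 9 genes had such a window. The paired receptor site GNACANNNTGTNC occurred in none of the 9 and in 0.475% of 32851 windows, and the half-site AGAACA, which overlaps it, in 3 of the 9 (*Sult1a1* with 2 copies, *Adh1* and *Akr1b7*) and in 19.0% of all windows. TATAAA was found in *Sult1d1*, *Adh6a*, *Akr1b8* and *Cyp2c55* and in 13.6% of all windows. Counted from the gene's start, it stood at -31 in *Adh6a* and -29 in *Cyp2c55*. In *Sult1d1* (at 5) and *Akr1b8* (at -159) it was reversed. GCGTG, the core of the aryl hydrocarbon receptor site, stood in *Sult1d1* and *Akr1b8* and in 32.4% of all windows, TGACNNNGC, an antioxidant element, in *Adh6a* and in 12.4%, and AGGTCANAGGTCA in none of the 9 and in 0.0396%. Both strands were searched, a match is only a run of letters, and the window of *Adh1* lay 16594 bases inside the gene as deposited.

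On the scale of FPKM, which divides by gene length, *Adh1* stood highest in all 4 groups. It averaged 124 ± 35.0 (Ctrl), 174 ± 44.2 (stress), 93.0 ± 6.61 (vehicle) and 171 ± 18.5 (CORT; mean ± SD, n = 3). *Sult1d1* came next in every group, from 21.4 FPKM in Ctrl to 88.5 in CORT, and its libraries did not reach those of *Adh1*. In Ctrl it was followed by *Sult1b1* at 15.8 and *Adh6a* at 14.1, whose ranges overlapped, then by *Cyp2c55* at 3.57 and *Aldh1a1* at 3.13, by *Sult1a1* at 2.05 and *Akr1b8* at 1.69, each pair overlapping, and last by *Akr1b7* at 0.740. The order was not fixed. *Akr1b7* moved from the lowest place in Ctrl to the fifth in CORT at 11.5 FPKM, above *Sult1a1* with no overlap, and *Cyp2c55* moved to the lowest place in vehicle at 0.353.

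Sulfotransferases transfer sulfate to phenols, catecholamines and steroids. *Sult1d1*, which acts on dopamine and other catecholamines in mice, measured 57.0, 58.8 and 56.2 CPM in the Ctrl libraries and 142, 81.9 and 166 CPM in the stress libraries. It measured 88.3, 137 and 127 CPM in vehicle and 266, 267 and 220 CPM in CORT. Each treated library lay above each library of its own control, and Ctrl was both the lowest and the tightest group. The log2 change was 1.19 ± 0.21 in stress vs. Ctrl and 1.07 ± 0.15 in CORT vs. vehicle (± standard error). The vehicle group itself lay above Ctrl by 1.03 ± 0.14.

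*Sult1b1*, a phenol and thyroid hormone sulfotransferase, measured 27.5, 31.7 and 23.9 CPM in Ctrl and 41.9, 30.7 and 64.8 CPM in stress, where library 3 fell within the Ctrl range. In vehicle it measured 20.4, 27.9 and 29.7 CPM, and the CORT libraries were close together at 43.5, 43.0 and 40.7 CPM, all above vehicle. Its log2 changes of 0.73 ± 0.24 and 0.68 ± 0.14 were both under 2-fold.

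*Sult1a1*, the main phenol sulfotransferase, followed another order. The Ctrl libraries had 4.01, 2.86 and 2.06 CPM and the stress libraries 8.39, 5.85 and 6.88 CPM. Injected mice had more, with 12.1, 20.5 and 17.0 CPM after vehicle and 11.4, 14.2 and 12.6 CPM after CORT. Stress lay above Ctrl without overlap (log2 change 1.24 ± 0.33), CORT and vehicle overlapped (-0.40 ± 0.20), and vehicle lay above Ctrl by 2.47 ± 0.28, a 5.52-fold difference. The gene overlaps *Sgf29*, which is read from the other strand and had 37.1 CPM on average against 9.81 CPM for *Sult1a1*. The overlap runs only from 126672865 to 126672925, at the end of a *Sult1a1* gene of 3.57 kb. Of the 50-base windows of *Sult1a1*, 8.23% also occur in *Gm6939*. No source says that strand was used in counting, so the counts of *Sult1a1* are uncertain within these stretches. *Sgf29* itself had log2 changes of -0.21 in stress and -0.01 in CORT.

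**Figure D1:**
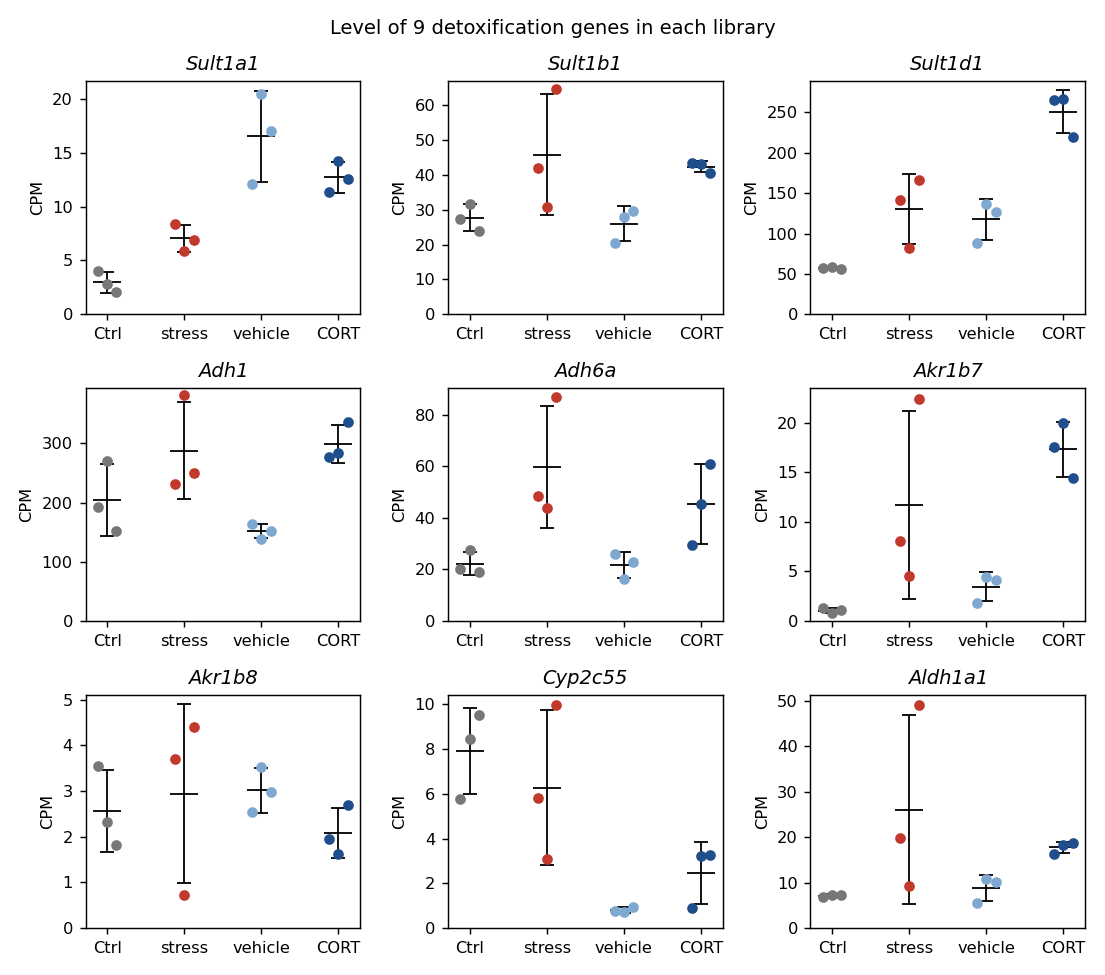
Level of each gene in CPM (linear axes starting at 0) in the 12 libraries; points are libraries, short bars and error bars the mean ± SD of 3 libraries. Stress libraries were widely spread for *Akr1b7* and *Aldh1a1*, CORT libraries lay above vehicle without overlap for 6 genes, and *Sult1a1* and *Cyp2c55* differed most between vehicle and Ctrl.

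Alcohol dehydrogenases oxidize ethanol, retinol and other alcohols to aldehydes. *Adh1*, the classical liver and gut enzyme, measured 192, 270 and 152 CPM in Ctrl and 232, 382 and 250 CPM in stress, with the groups overlapping and a log2 change of 0.49 ± 0.22. It measured 164, 139 and 152 CPM in vehicle and 276, 284 and 336 CPM in CORT, a separation with a log2 change of 0.96 ± 0.10, just under 2-fold. Stress library 3, the lowest of its group for the other 8 genes, was the highest for *Adh1*.

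*Adh6a*, its neighbor, whose substrates are less well known, measured 20.4, 27.4 and 19.1 CPM in Ctrl and 48.4, 44.0 and 86.8 CPM in stress. In vehicle it measured 26, 16.2 and 22.8 CPM and in CORT 29.6, 45.5 and 60.8 CPM. Both treated groups lay above their controls without overlap, with log2 changes of 1.43 ± 0.25 and 1.04 ± 0.26. Within CORT the libraries differed by more than 2-fold, and the lowest lay close to the highest vehicle library. Vehicle and Ctrl overlapped (-0.04 ± 0.20).

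*Aldh1a1*, a cytosolic retinaldehyde dehydrogenase, measured 6.86, 7.20 and 7.33 CPM in Ctrl and 19.9, 9.16 and 49.2 CPM in stress, a spread of more than 5-fold among the stressed libraries. In vehicle it measured 5.55, 10.7 and 10.1 CPM and in CORT 16.3, 18.2 and 18.7 CPM. The treated libraries lay above the controls in both comparisons, with log2 changes of 1.88 ± 0.48 and 0.99 ± 0.23. Of its 50-base windows, 6.54% also occur in *Aldh1a7*, 49.5 kb away, whose log2 changes were 0.97 ± 0.44 and 1.11 ± 0.33 (edgeR adjusted p = 0.343 and 0.0773).

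Aldo-keto reductases reduce aldehydes and ketones, among them products of lipid peroxidation and steroid breakdown. *Akr1b7*, an aldose reductase-like enzyme first known from steroid-making and reproductive tissue, measured 1.28, 0.773 and 1.15 CPM in Ctrl and 8.08, 4.58 and 22.4 CPM in stress. In vehicle it measured 1.83, 4.45 and 4.15 CPM and in CORT 17.6, 19.9 and 14.4 CPM. Of the 9 genes it had the largest log2 changes in both comparisons, 3.45 ± 0.57 in stress and 2.28 ± 0.30 in CORT, that is 10.9-fold and 4.86-fold. The Ctrl libraries rested on 13 to 22 counts, near the limit of 12, and all vehicle libraries lay above all Ctrl libraries (1.70 ± 0.46).

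*Akr1b8*, its closest relative among the 9, measured 3.55, 2.32 and 1.82 CPM in Ctrl and 3.70, 0.724 and 4.41 CPM in stress. The vehicle libraries had 2.54, 3.53 and 2.97 CPM and the CORT libraries 1.94, 1.63 and 2.70 CPM. Treated and control groups overlapped in both comparisons, with log2 changes of 0.21 ± 0.59 and -0.56 ± 0.32, and the lowest stress library rested on 12 counts. The reading frames of *Akr1b7* and *Akr1b8* were 85.7% identical with a longest shared run of 52 bases, and 2.52% of the 50-base windows of *Akr1b7* and 3.21% of those of *Akr1b8* occur in another gene. The sulfotransferases were less alike (64.5% to 66.9%), as were *Adh1* and *Adh6a* (66.2%).

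*Cyp2c55*, a P450 that oxidizes arachidonic acid and answers to PXR and CAR ligands, measured 5.76, 8.45 and 9.51 CPM in Ctrl and 5.80, 3.07 and 9.97 CPM in stress, with overlap (log2 change -0.33 ± 0.39). It was at 0.768, 0.694 and 0.947 CPM in vehicle, on 12 to 29 counts, and at 0.881, 3.23 and 3.28 CPM in CORT, where library 2 lay within the vehicle range. The log2 change was 1.57 ± 0.54 in CORT vs. vehicle and -3.27 ± 0.34 in vehicle vs. Ctrl. Both injected groups lay below Ctrl in every library.

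Read as a set, 3 of the 9 genes met the call rule (edgeR adjusted p under 0.05 and more than 2-fold) as higher in stress, namely *Sult1d1*, *Adh6a* and *Akr1b7*, where 0.612% of all 13722 genes tested did, and none was lower, where 0.138% of all genes were (none of the 9 was lower at an unadjusted p under 0.05 or by DESeq2). Without the fold limit the count of higher genes was also 3, against 1.3% of all genes. In 5 of the 9 all stress libraries lay above all Ctrl libraries, as in 10.1% of all genes. The median log2 change was 1.19 for the 9 genes and -0.0028 for all genes. The values chose the members here, so nothing is read from these counts.

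In CORT vs. vehicle the same 3 genes were called higher, against 1.13% of 14656 genes, and none lower (by DESeq2 or at an unadjusted p under 0.05 either), against 0.737%. Without the fold limit *Sult1b1*, *Adh1* and *Aldh1a1* joined them, which made 6 of 9 against 3.64% of all genes, and these 6 were also the genes whose groups separated, against 15.7%. The median log2 change was 0.99 for the 9 genes and 0.01 for all genes. Of 13627 genes tested in both comparisons, 37 were called higher in both, and 3 of these were members.

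The 2 comparisons use separate control groups, so the size of each change can be set side by side. The difference between the log2 changes in stress and in CORT was 1.64 ± 0.36 for *Sult1a1*, -1.89 ± 0.70 for *Cyp2c55* and 1.16 ± 0.70 for *Akr1b7*, and between -0.47 and 0.88 for the other 6. None of the 9 met an adjusted p under 0.05 for that difference in edgeR, where 0.388% of 14415 genes did; 2 had an unadjusted p under 0.05, and DESeq2 called 1, *Sult1a1*, as did edgeR without stress 3 or without vehicle 3. Intervals of this width do not show that stress and CORT act alike on these genes.

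**Figure D2:**
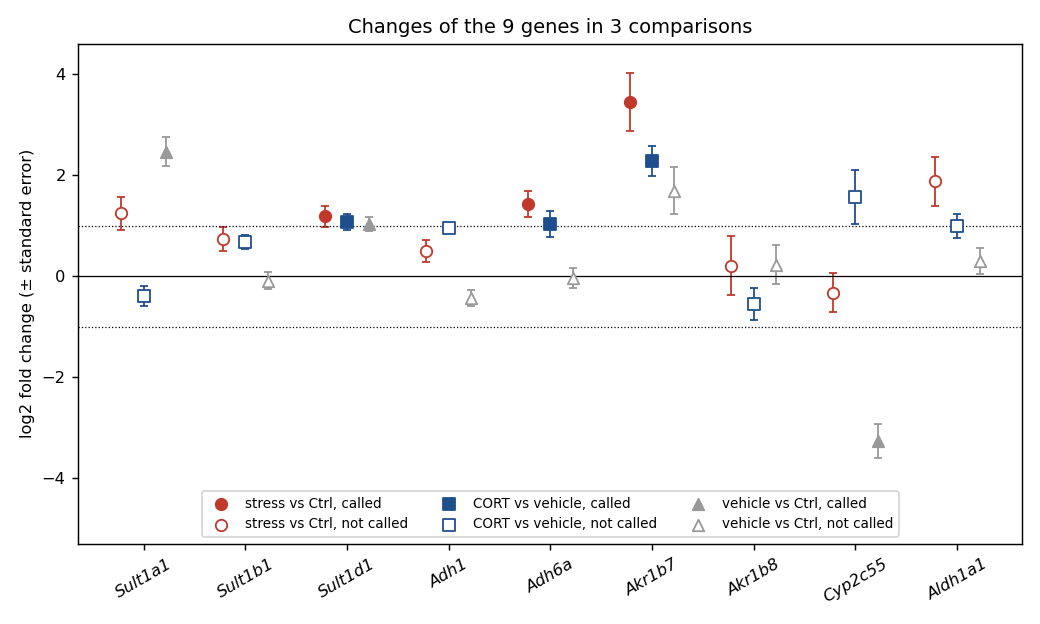
Log2 fold changes of the 9 genes (vertical axis, ± standard error) in stress vs. Ctrl (circles), CORT vs. vehicle (squares) and vehicle vs. Ctrl (triangles), with filled symbols for genes that met the call rule and dotted lines at 2-fold. *Sult1d1*, *Adh6a* and *Akr1b7* are filled in stress and in CORT, and the triangles of *Sult1a1* at 2.47 and *Cyp2c55* at -3.27 lie farthest from 0.

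In vehicle vs. Ctrl, *Sult1a1* and *Sult1d1* were called higher, against 0.227% of 13642 genes, and *Cyp2c55* lower, against 0.132%. *Sult1d1* missed the rule without Ctrl 1, vehicle 5 or vehicle 6 (0.91 to 1.19), and the other 2 met it without any 1 library. All 3 missed it with log2(FPKM + 1) and no filter, and *Sult1d1* also with the filter. This comparison shares its vehicle libraries with CORT vs. vehicle and its Ctrl libraries with stress vs. Ctrl. Vehicle and Ctrl mice differed in the injection. They may also have differed in the food and water schedule, which the methods give only for controls of the restraint protocol. Dates of collection are not given, so injection, schedule and date cannot be told apart. *Fkbp5* was also higher in vehicle (137, 182 and 193 CPM) than in Ctrl (67.8, 65.1 and 57.9 CPM), while *Tsc22d3*, another glucocorticoid target, had a log2 change of -0.13 ± 0.14.

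The 3 calls in stress were lost with no filter on low counts and in all 3 fits of FPKM. *Adh6a* and *Akr1b7* met the rule without any 1 stress library, at log2 changes of at least 1.06 and 2.57, and missed it without any 1 Ctrl library, as *Sult1d1* did without any library other than stress 3. In CORT, *Akr1b7* met the rule under all 14 alternatives (log2 change 1.89 to 2.48), and *Sult1d1* missed it without vehicle 3 and with log2(FPKM + 1) and no filter. *Adh6a* missed it without any 1 library except CORT 2 (0.767 at the lowest, without CORT 5) and in all 3 fits of FPKM (0.89 at the lowest).

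Markers of absorptive enterocytes ranked the stress libraries in the same order (4+5+6, then 1+2, then 3) as 7 of the 9 genes did, all but *Sult1a1* and *Adh1*. The share of all genes with this order was not computed, and 3 libraries allow few orders, so nothing is read from that count. The order is also that of how many numbers are joined in the titles. The 8 markers summed to 587 to 624 CPM in Ctrl and to 1447, 791 and 2447 CPM in stress 1+2, 3 and 4+5+6. In edgeR, 5 of the 8 were called higher in stress, namely *Alpi* (3.60 ± 0.61), *Apoa4* (2.66 ± 0.51), *Fabp1* (3.39 ± 0.60), *Sis* (3.35 ± 0.58) and *Lct* (3.03 ± 0.61), and none lower. The goblet cell markers *Zg16* and *Clca1* were also called higher in stress, and the 7 goblet markers summed to 528 to 670 CPM in Ctrl and 538 to 1513 CPM in stress.

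Enterocyte markers summed to 640 to 803 CPM in vehicle and 769 to 849 CPM in CORT, and no marker met the call rule. Of the 8, 3 had a log2 change above 0, among them *Slc5a1* (0.81 ± 0.08) and *Fabp2* (0.46 ± 0.10), which passed the adjusted p at under 2-fold. *Fabp1* lay below vehicle in every CORT library (-1.26 ± 0.36), and *Lct* (-0.62 ± 0.45) and *Anpep* (-0.23 ± 0.19) overlapped. In vehicle itself *Fabp1* was called higher than in Ctrl (1.915 ± 0.31). The Paneth markers summed to 185 to 213 CPM in vehicle and 105 to 118 CPM in CORT. Their part in the changes of the 9 genes was not tested. Paneth cells carry CD24, which the sort gated out. In bulk RNA of sorted cells, a change in the share of a cell type and a change in RNA per cell cannot be told apart.

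**Figure D3:**
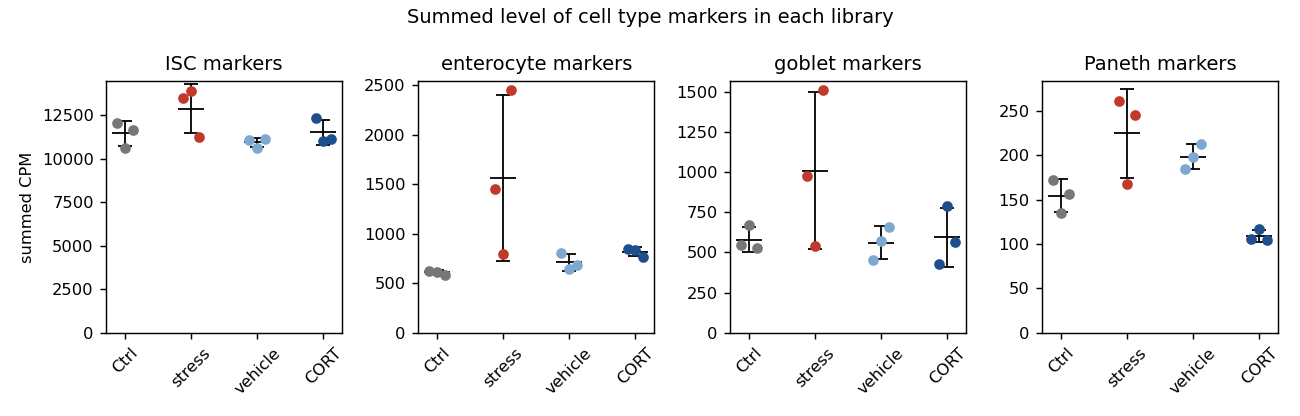
Summed CPM of 6 ISC, 8 enterocyte, 7 goblet and 6 Paneth markers in each of the 12 libraries (points), with mean ± SD of 3 libraries per group. Enterocyte markers ranged from 791 to 2447 CPM in stress and from 587 to 849 CPM in the other groups.

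Other genes of the same pathways were taken from lists by enzyme family, 301 genes in all besides the 9. In stress vs. Ctrl, 178 of them were tested, 5 were called higher and none lower with edgeR, against 0.612% and 0.138% of all genes. At an unadjusted p under 0.05, 9 were lower and 58 changed in either direction, against 2083 of 13722 genes. DESeq2 called none lower and 9 higher. In CORT vs. vehicle, 185 were tested, 6 were called higher and none lower, against 1.13% and 0.737% of all genes. At an unadjusted p under 0.05, 16 were lower and 65 changed in either direction, against 3428 of 14656 genes. DESeq2 called 1 lower and 11 higher. The median log2 change of these relatives was 0.14 in stress and 0.11 in CORT, and -0.0028 and 0.01 over all genes. The lists were made with earlier results of these data known, so nothing is read from these counts. Of 12 aldo-keto reductases tested in stress and 11 in CORT, only *Akr1b7* was called, and of 16 aldehyde dehydrogenases tested in CORT only *Aldh1a1* passed the adjusted p, at under 2-fold.

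*Papss2*, which makes the sulfate donor that every sulfotransferase uses, measured 7.85, 7.08 and 7.33 CPM in Ctrl and 43.5, 22.3 and 89.5 CPM in stress. It rose by 2.81 ± 0.42 on the log2 scale (edgeR adjusted p = 0.0110). Its stress libraries had the order of the enterocyte markers, as did those of *Cyp1a1*, *Cyp2b10* and *Rbp2* below, but not those of *Cyp4a32*. As above, nothing is read from that order, and a part of enterocytes in these changes was not tested. In CORT the level of *Papss2* was 6.56, 11.8 and 10.2 CPM against 5.26, 7.35 and 5.16 CPM in vehicle (0.66 ± 0.26, edgeR adjusted p = 0.160). *Papss1*, the other enzyme of this step, had log2 changes of -0.09 and -0.04. Of the 6 genes of sulfate donor supply tested, *Papss2* alone was called. It missed the rule without any 1 Ctrl library (2.15 to 3.17 over all left-out libraries) and met it in 4 of 8 other fits, which kept all libraries.

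Cytochromes P450 supplied 3 of the 5 relatives called in stress. *Cyp1a1*, the classical target of the aryl hydrocarbon receptor, had no counts in any Ctrl or vehicle library and 3.15, 2.59 and 4.70 CPM in stress, at least 4.88-fold higher than the level of 12 counts in a Ctrl library (edgeR adjusted p = 0.00493). In CORT it had counts in library 4 alone. *Cyp2b10*, a CAR target, rose by 2.66 ± 0.53 (adjusted p = 0.0358) and *Cyp4a32*, of a family that oxidizes fatty acids, by 2.88 ± 0.44 (adjusted p = 0.0127). *Cyp4a32* was at 0.465 to 0.788 CPM in Ctrl, on 8 to 13 counts, and 3.61 to 5.62 CPM in stress, with library 1+2 the highest. *Cyp1a1* met the rule without any 1 library and missed it in all 3 fits of FPKM (adjusted p 0.0665 to 0.105 with limma). With a library left out, *Cyp2b10* met the rule only without stress 3 (1.85 to 3.04), and it did so in 4 of 8 other fits. *Cyp4a32* missed the rule without Ctrl 1, Ctrl 2 or stress 1+2 (2.67 to 3.13) and met it in 6 of 7 other fits. The receptor gene *Ahr* itself had a log2 change of -0.04 ± 0.18.

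*Rbp2*, which carries retinol inside absorptive cells, measured 8.78, 8.21 and 10.6 CPM in Ctrl and 65.2, 41.5 and 177 CPM in stress. It rose by 3.37 ± 0.47 (edgeR adjusted p = 0.00825) and was called as the only one of 11 retinoid genes tested. It missed the rule without any 1 Ctrl library (2.54 to 3.73) and met it in 6 of 8 other fits. In CORT it overlapped with vehicle (0.08 ± 0.23).

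In CORT, *Cyp2c70*, which makes muricholic acids from bile acids, rose by 2.59 ± 0.58, from 0.174 to 0.979 CPM in vehicle to 2.66 to 3.80 CPM in CORT (edgeR adjusted p = 0.0251). *Hsd3b3*, a steroid dehydrogenase, rose by 1.75 ± 0.37 (adjusted p = 0.0212). *Gstm3*, a glutathione transferase, measured 32.0, 32.6 and 26.5 CPM in vehicle and 59.9, 70.9 and 66.7 CPM in CORT (1.10 ± 0.11, adjusted p = 0.000715). It was the only one of 21 glutathione transferases called, met the rule without any 1 library and fell just under 2-fold with log2(FPKM + 1) (0.99). With a library left out, *Cyp2c70*, with 2 vehicle libraries under 12 counts, met it only without vehicle 6 (2.23 to 3.86). It met the rule in 7 of 7 other fits. *Hsd3b3* missed the rule without vehicle 5, vehicle 6, CORT 2 or CORT 4 (1.54 to 2.16) and met it in 6 of 8 other fits.

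*Slc22a5*, the carnitine transporter, measured 32.0, 44.7 and 37.9 CPM in vehicle and 83.9, 96.3 and 69.95 CPM in CORT (log2 change 1.10 ± 0.14, edgeR adjusted p = 0.00212). In stress it also rose, by 0.61 ± 0.11 (adjusted p = 0.0206), under 2-fold. Of 15 nuclear factors tested, *Ppara*, the fasting-related fatty acid sensor, rose by 1.30 ± 0.23 in CORT (adjusted p = 0.00916) and *Nr5a2*, which encodes LRH-1, by 1.06 ± 0.10 (adjusted p = 0.000586). *Nr5a2* was at 57.5, 52.9 and 44.2 CPM in vehicle and 106, 113 and 109 CPM in CORT. *Ppara* met the rule without any 1 library and missed it with log2(FPKM + 1) and no filter (limma adjusted p = 0.0971). *Nr5a2* fell under 2-fold without vehicle 6 (0.96) and met the rule in 5 of 8 other fits. *Slc22a5* missed the rule without vehicle 3 or CORT 4 (0.99 to 1.23) and met it in 6 of 8 other fits.

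*Nr1i2*, which encodes PXR, was 69.4 to 77.7 CPM in vehicle and 127 to 131 CPM in CORT (0.76 ± 0.07, edgeR adjusted p = 0.000586) and 70.03 to 76.6 CPM in Ctrl and 86.8 to 111 CPM in stress (0.47 ± 0.11, adjusted p = 0.0564). *Nr3c1*, the glucocorticoid receptor, fell by 0.37 on the log2 scale in CORT (adjusted p = 0.0120) and was -0.05 ± 0.09 in stress. *Hsd11b2*, the enzyme that inactivates corticosterone, had log2 changes of 0.64 in both comparisons with no call, and 1.56 ± 0.22 in vehicle vs. Ctrl (adjusted p = 0.0102). In that comparison *Cyp3a11*, a PXR target, was lower by -3.21 ± 0.62 (adjusted p = 0.0428), the same direction as *Cyp2c55*, with all vehicle libraries under 12 counts. *Hsd11b2* missed the rule without Ctrl 1 or Ctrl 2 (1.32 to 1.74) and met it in 7 of 8 other fits. With a library left out, *Cyp3a11* met the rule only without vehicle 3 (-3.995 to -2.76), and it did so in 2 of 7 other fits.

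**Figure D4:**
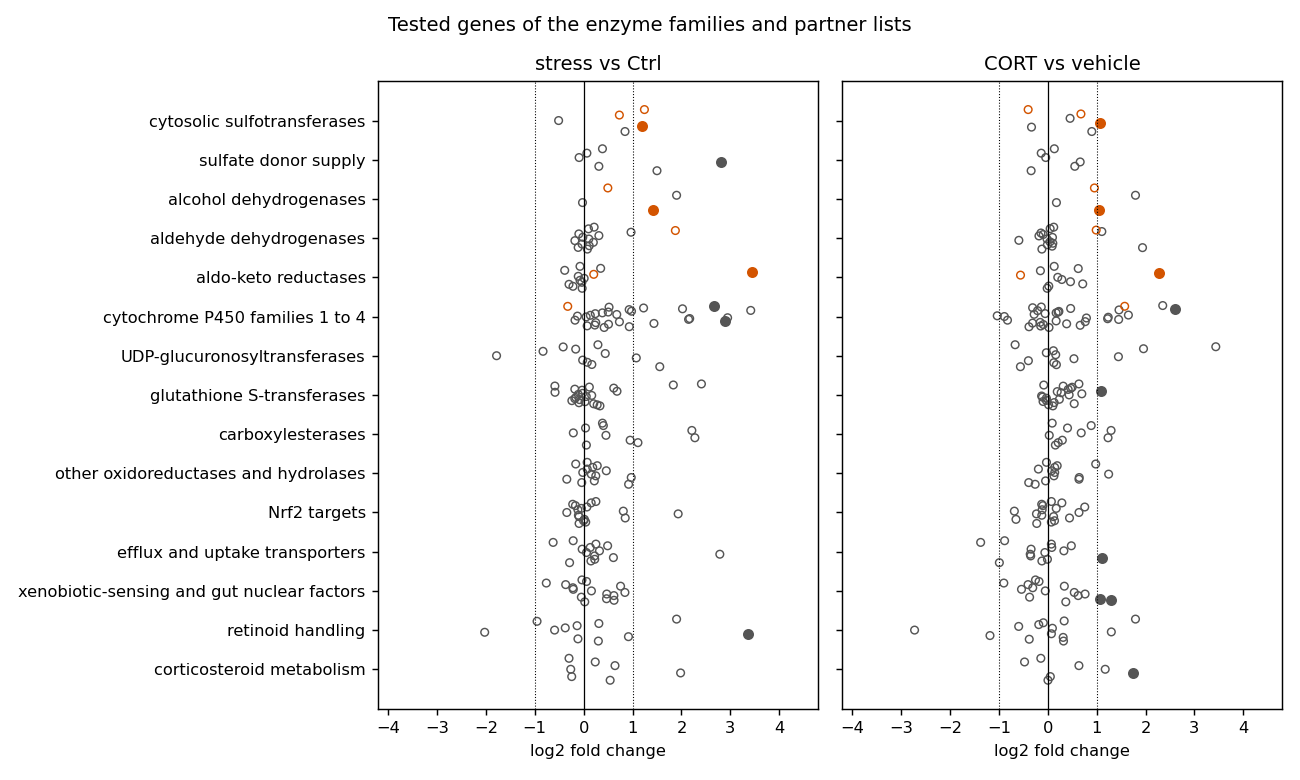
Log2 fold change (horizontal axis) of each tested gene by list in stress vs. Ctrl (left) and CORT vs. vehicle (right); orange circles are the 9 genes, grey circles their relatives, filled circles met the call rule, and dotted lines mark 2-fold. *Cyp1a1* is left out of the left panel because it had no counts in Ctrl; *Akr1b7* at 3.45 and 2.28 stands apart from the other aldo-keto reductases in both panels.

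Of 41 other genes within 200 kb, 40 were tested in stress and 41 in CORT, and edgeR called none in either. Over all genes tested, 0.612% were called higher and 0.138% lower in stress, and 1.13% and 0.737% in CORT. Of the 40 genes in stress, 4 had an unadjusted p under 0.05 as higher and 4 as lower, and DESeq2 called 1. Of the 41 in CORT these were 6 and 4, and DESeq2 called 2. *Akr1b10*, 15.4 kb from *Akr1b7* and 15.8 kb from *Akr1b8*, had log2 changes of 0.35 and 0.62, and *Akr1b3*, the housekeeping aldose reductase, of -0.39 and -0.15. *Gm16559*, an antisense gene that overlaps *Adh1*, averaged 1.52 CPM against 236 CPM for *Adh1*.

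Across the 12 libraries the genes varied together to different degrees, described by Pearson's r of log2(CPM + 1), with groups and depth shared by the points. *Sult1b1* and *Aldh1a1* were alike at r = 0.953, *Sult1d1* and *Akr1b7* at 0.933, and *Akr1b7* and *Aldh1a1* at 0.882, whereas *Akr1b8* stayed between -0.46 and 0.35 with all others. *Sult1a1* and *Cyp2c55* ran opposite at -0.81. Among 13627 genes, the closest to *Aldh1a1* was *Rdh7*, a retinol dehydrogenase family member, at 0.963, to *Sult1d1* *Tc2n* at 0.962 and *Cyp27a1* at 0.958, to *Akr1b7* *Ypel1* at 0.963, *Chp1* at 0.962 and *Tmem37* at 0.958, and to *Sult1b1*, after *Aldh1a1*, *Heph*, a copper oxidase of iron export, at 0.951. *Adh1* was closest to *Amz2* at 0.962, *Adh6a* to *BC089597* at 0.923, *Sult1a1* to *Adcy1* at 0.928, *Cyp2c55* to *Pink1* at 0.919 and *Akr1b8* to *Pja2* at 0.881.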

How the data were processed

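RNA-seq of 12 libraries was used. The authors aligned paired 150-base reads to mm10, with HISAT2 2.2.1 and StringTie 2.2.1 per the labels' processing notes. They deposited estimated counts per gene, each worth about 75 covered bases, and per library the FPKM and the mean coverage (a signal) of each gene; coverage served only to find the unit. Counts were whole and no column (0) was without a sample. Genes were tested with edgeR 4.0.16 in R 4.3.3 (quasi-likelihood, TMM, filterByExpr, Benjamini-Hochberg over all genes), after a check on simulated data; a called gene had an adjusted p under 0.05 and over 2-fold change. Alternatives were DESeq2 1.42.0, its size factors, other filters, all libraries in one fit, limma 3.58.1 on log2 FPKM and each library left out. Of genes sharing 1 of 126 repeated symbols, that with most counts stood for the symbol. Named were the members, called relatives, genes within 200 kb, the 3 genes most like each member (not all printed), markers and glucocorticoid targets. Members and lists were chosen with earlier results of these data known. P-values set the difference between groups against the spread between libraries, which is not shown to be that between animals.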

Additional observations from a re-analysis of the deposited data

Results flagged for a closer look

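The 3 genes named among the relatives and markers that follow changed differently in stress vs. Ctrl and in CORT vs. vehicle by edgeR's interaction test on the 12 libraries (adjusted over all genes). The enterocyte fatty acid binding protein *Fabp1* differed by 4.65 ± 0.81 on the log2 scale (adjusted p = 0.0294). It was higher in all stress libraries than in Ctrl and lower in all CORT libraries than in vehicle. *Fabp1* was also called higher in vehicle than in Ctrl (1.915 ± 0.31, edgeR adjusted p = 0.01825). It measured 8.57 to 10.8 CPM in Ctrl, 20.6 to 56.75 CPM in vehicle and 9.98 to 19.7 CPM in CORT, so CORT did not lie below Ctrl. *Rbp2* differed by 3.29 ± 0.59 (adjusted p = 0.0355). The Paneth cell protease *Mmp7* differed by 2.18 ± 0.21 (adjusted p = 0.000688), with 78.7 to 101 CPM in vehicle, 32.3 to 42.3 CPM in CORT, 39.6 to 40.4 CPM in stress and 16.4 to 25.6 CPM in Ctrl. Groups of 3 libraries were too small to test single libraries as outliers.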

How the results depend on the processing

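No paired analysis was made because no label links control libraries to treated libraries. The 3 members called in stress vs. Ctrl became 0 with no filter on low counts and in each of the 3 fits of FPKM. With all 12 libraries in one fit they became 5. Leaving out a library gave 0 without Ctrl 1, Ctrl 2 or Ctrl 3, and at most 5, without stress 3, which added *Sult1a1* and *Aldh1a1*. The 3 called in CORT vs. vehicle became 1 with log2(FPKM + 1) and no filter. When a library was left out they became 2 without vehicle 3, vehicle 6, CORT 4 or CORT 5, and at most 5, without CORT 2. In vehicle vs. Ctrl the 2 higher members became 1 with log2(FPKM + 1) and 0 with no filter besides, where the 1 lower member became 0. Without Ctrl 1, vehicle 5 or vehicle 6 the 2 higher members became 1. For the difference between the comparisons, DESeq2 called 1 member higher, as did edgeR without stress 3 or without vehicle 3, against 0 otherwise. The 5 relatives called higher in stress became 9 with DESeq2, 2 with no filter and in 2 FPKM fits, 0 in the third, and 11 in one fit of all libraries, and ranged from 1 (without Ctrl 1) to 27 (without stress 3). The 6 called higher in CORT became 11 with DESeq2, 3 with log2(FPKM + 1) and 1 with no filter besides, and ranged from 3 (without CORT 4) to 8 (without vehicle 5); lower calls were 1 (*Rarg*) with DESeq2 and 0 to 2 without a library, 2 without CORT 4. Members with small changes turned sign: *Akr1b8* in stress (-0.087 with log2(FPKM + 0.1), -0.21 to 0.67 without a library), *Cyp2c55* in stress (-0.83 to 0.0029), *Sult1b1* and *Adh6a* in vehicle vs. Ctrl (-0.19 to 0.052 and -0.19 to 0.13), and the difference between comparisons for *Sult1b1* (-0.29 to 0.27) and *Sult1d1* (-0.11 to 0.35). Leaving out a library leaves 2 against 3; other causes were not tested. Depth limits *Akr1b7* in Ctrl, *Akr1b8* and *Cyp2c55* in vehicle, which rest on 12 to 91 counts.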

Other observations

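Some list members changed by less than 2-fold and were chosen here after their values were seen. Among the nuclear factors, *Cdx2*, which keeps intestinal identity, fell by 0.76 on the log2 scale in stress vs. Ctrl (edgeR adjusted p = 0.0101) and by 0.90 in CORT vs. vehicle (adjusted p = 0.00211), and *Hnf4a*, an epithelial differentiation factor, fell by 0.37 (adjusted p = 0.0440) and by 0.40 (adjusted p = 0.0179). *Nr1h4*, the bile acid receptor FXR, rose by 0.84 ± 0.13 in stress (adjusted p = 0.0148). In CORT, *Nfe2l2*, which encodes Nrf2, fell by 0.54 (adjusted p = 0.00556), while *Gclc*, the glutathione-making enzyme, rose by 0.76 ± 0.12 (adjusted p = 0.00591) as 1 of 17 Nrf2 targets past the adjusted p. *Ugt1a1*, the bilirubin glucuronosyltransferase, fell by 0.67 in CORT (adjusted p = 0.00328) and the efflux pump *Abcb1a* by 0.88 (adjusted p = 0.0260). Over all genes, 179 rose and 81 fell at any fold in stress, and 533 rose and 659 fell in CORT.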
